A study of Mus musculus with 3 samples.

Results

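The genes described here encode the proteins of the cytosolic ribosome. They were taken by name from the arrays: every probe whose gene name starts with Rpl or Rps and a number, the stalk genes Rplp0, Rplp1 and Rplp2, and Rpsa, leaving out the S6 kinases, names that mark pseudogenes and names containing "-like". The rule uses no measured value and finds 141 probes of 83 genes, out of 41174 probes of 27390 genes. By the start of their names, 32 of the genes are counted with the small (40S) subunit and 49 with the large (60S) subunit. The other 2 are not ribosomal protein genes: Rps19bp1 encodes a protein that binds Rps19, and Rpl18p carries a pseudogene's name. They are kept in the counts because the rule finds them, and the counts without them are given once.

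RNA came from MigA9, a mouse hematopoietic cell line transformed by the homeobox factor Hoxa9 and grown in medium conditioned with GM-CSF. The cultures received 2.5 µM DB818, a compound that binds the minor groove of DNA and has been studied for blocking HOXA9 at its DNA sites, for 6, 12 or 24 h, and were set against untreated cultures of the line. All groups share the Hoxa9 transformation and the medium, so the line is the only background examined. Each time had 1 two-colour array, with treated RNA in the Cy5 channel and untreated RNA in the Cy3 channel, no dye swap and no second array. The labels do not say whether the untreated RNA of the 3 arrays was 1 preparation or 3.

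A ribosome carries 1 copy of almost every one of these proteins, and cells keep their amounts in proportion. Their mRNAs are among the most abundant in growing cells and share a terminal pyrimidine tract at the 5′ end, through which the kinase mTOR and the RNA-binding protein Larp1 control their translation. A change in that control alters protein synthesis without having to alter mRNA level, and arrays measure mRNA level. In blood cells the family is known for Diamond-Blackfan anemia, in which the loss of 1 copy of genes such as RPS19 impairs human erythroid progenitors.

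Values are log2 ratios of DB818-treated over untreated signal, so a positive value means a higher signal in treated cells, and a gene's value is the mean of its usable probes. A ratio was used where the probe stood well above background in both channels and was not saturated. Repeated spots of a probe scattered by 0.044 at 6 h, 0.034 at 12 h and 0.051 at 24 h (SD), a technical error that holds no difference between cultures. Of 10 markers of myeloid progenitors and granules, 9 had a tested ratio, among them Kit, Elane and Mpo, and the probe of Ctsg stood above background too. Of the markers of B cells and fibroblasts (5 each), 0 had a usable ratio on any array, and of 5 erythroid markers Epor was above background at 6 h alone. Of the T cell list, Lat was tested (mean log2 ratio 0.037 ± 0.037, SE), and of the mast cell list Mcpt8 (0.35 ± 0.061, limma adjusted p = 0.0099). Of the 9 myeloid markers 3 were higher and 5 lower, the lowest being Mpo (mean -0.67) and Elane (-0.62), and the part that a change in the cells' state has in the ribosomal results was not tested. The ratios are of bulk RNA, in which fewer cells of a type and less RNA per cell cannot be told apart.

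Relative to genes of like brightness, ribosomal protein mRNAs stayed close to their untreated level at every time, which does not hold under median centring (given after the plot of the ratios). The 71 members measured at 6 h lay between -0.23 and 0.24 with a median of -0.015, the 69 at 12 h between -0.165 and 0.26 with a median of 0.020, and the 70 at 24 h between -0.15 and 0.39 with a median of 0.054. Over all measured genes the medians were 0.027, 0.025 and 0.028, and over the brightest 10% of genes -0.011, -0.0090 and -0.0097. Within 0.32 of 0 lay 71 of 71 members at 6 h, 69 of 69 at 12 h and 69 of 70 at 24 h, against 97.5, 97.9 and 95.8% of all genes. The exception was Rpl14, 1.31-fold higher at 24 h.

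At 1.1-fold, 8 members were higher and 8 lower at 6 h (11.3% each way, against 17.1% and 7.34% of 11451 genes). At 12 h there were 7 higher and 1 lower (10.1% and 1.45%, against 15.4% and 6.87% of 11479 genes). At 24 h there were 17 higher and 1 lower (24.3% and 1.43%, against 19.0% and 9.11% of 11566 genes). The share of members that were higher was thus below that of all genes at 6 and 12 h and above it at 24 h, and the share that were lower was below it at 12 and 24 h. These counts have no replicate check.

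**Figure D1:**
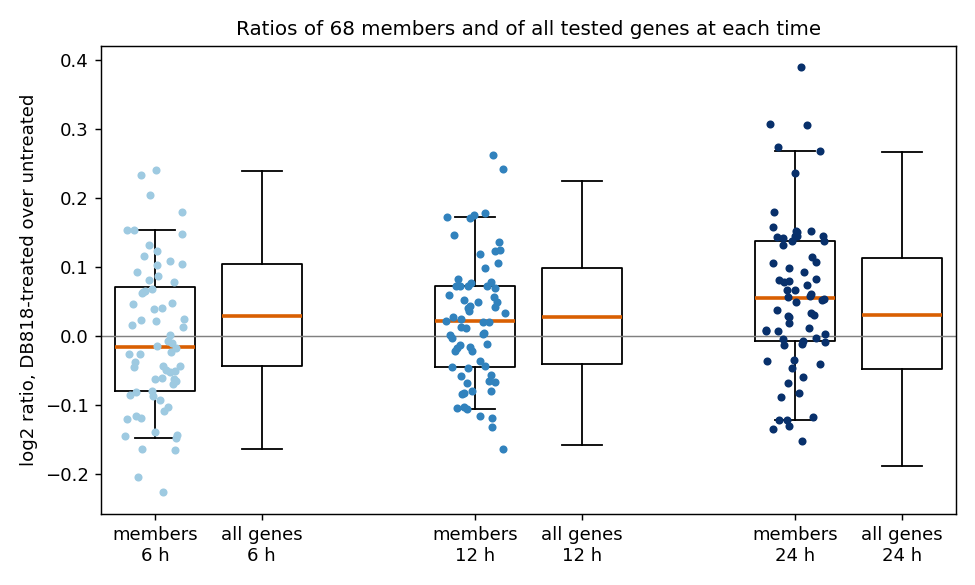
Log2 ratios of DB818-treated over untreated signal at 6, 12 and 24 h for the 68 members measured on all arrays (points) and for the 10958 genes measured on all arrays. Boxes span the quartiles, whiskers the central 90% and the orange line is the median; the members' box lies lowest at 6 h and highest at 24 h, and centred on the median without loess the members' boxes would lie far above 0 at all 3 times (medians 0.479, 0.444 and 0.525).

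These levels are relative to genes of like brightness, because the loess normalisation sets each array's bright genes near 0 and 54 of the 68 members measured on all arrays lay among the 1096 brightest genes. When each array was only centred on its median, the members' medians became 0.479, 0.444 and 0.525, beside 0.43, 0.37 and 0.43 for the brightest 10% of genes as a whole. A shift shared by all bright transcripts and a brightness-dependent dye effect cannot be told apart on arrays without a dye swap.

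For the mean over the 3 times, 68 members could be tested against 0 (limma, Benjamini-Hochberg over 10958 genes). Of these, 13 were higher in DB818-treated cells, 6 were lower and 49 did not pass. The shares, 19.1% higher and 8.82% lower, lay close to those of all tested genes, 20.1% and 7.86%. Among the brightest 10% of genes, where most members lie, 14.5% were higher and 18.9% lower, and the 54 members there gave 7 higher and 6 lower. The members' median mean was 0.017, against 0.029 over all genes. Without Rps19bp1 and Rpl18p, 12 of 66 were higher and 6 lower. With median centring 62 members were higher and 2 lower, against 4154 higher and 4477 lower of all 10958 genes. The 6 members lower under loess all stood above 0 there, so the directions below hold relative to genes of like brightness.

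Among large-subunit genes 8 of 40 were higher and 3 lower. Rpl14, an RNA-binding protein of the large subunit, had 0.24, 0.26 and 0.39 at 6, 12 and 24 h and the highest mean of any member (0.30 ± 0.038, SE, n = 3 arrays; limma, adjusted p = 0.0051). Rpl26, which in human cells also binds the mRNA of p53, had 0.18, 0.24 and 0.27 (mean 0.23 ± 0.032, adjusted p = 0.0060). Both were higher on 3 of 3 arrays, and in each the 24 h array gave the highest ratio. Each of the 2 values rests on 1 usable probe.

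Rpl31, which lines the exit of the peptide tunnel, had 0.15, 0.15 and 0.30 (mean 0.20 ± 0.040, adjusted p = 0.014). Rpl13a, known in human monocytes for a role outside the ribosome as a repressor of inflammatory mRNAs, had 0.12, 0.14 and 0.31 (mean 0.19 ± 0.043, adjusted p = 0.022). In both of these genes the 24 h ratio stood apart from the other two. The remaining large-subunit genes that were higher were Rpl22 (mean 0.16), Rpl4, a protein of the tunnel wall (0.14), Rpl27a (0.12) and Rpl36al (0.12), each above 0 on every array. By the brightest probe alone Rpl22 had 0.079 (limma, adjusted p = 0.13) and Rpl27a 0.083 (adjusted p = 0.16), so neither passed. That setting kept 13 of the 19 calls. The values of Rpl13a, Rpl4 and Rpl36al rest on 1 usable probe each.

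Among small-subunit genes 4 of 26 were higher and 3 lower. Rps19, the gene most often mutated in human Diamond-Blackfan anemia, had 0.15, 0.17 and 0.24 (mean 0.19 ± 0.032, adjusted p = 0.0093). Rps27a, made as a fusion with ubiquitin, had 0.13, 0.17 and 0.16 (mean 0.15 ± 0.029, adjusted p = 0.013). Rps20 had 0.20, 0.17 and 0.14 (mean 0.17 ± 0.030, adjusted p = 0.0098) and Rps10 had 0.064, 0.098 and 0.15 (mean 0.10 ± 0.032, adjusted p = 0.049). All 4 lay above 0 on every array, and Rps20 alone of them had its highest ratio at 6 h.

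For each of these 4 small-subunit genes the value rests on 1 usable probe. That of Rps20 was dim, with a mean log2 intensity of 6.7, against 15.4 for the gene's saturated probe. A second Rps20 probe was saturated in the treated channel and read -0.40, -0.41 and -0.33, and with saturated probes kept the gene's mean turned to -0.10. A second Rps19 probe, also saturated, read 0.0071, -0.088 and 0.016, and with it kept the mean was 0.082 and did not pass (adjusted p = 0.092).

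The lower members were led by Rps2, which lies at the ribosome's mRNA entry site, with -0.23, -0.080 and -0.15 (mean -0.15 ± 0.037, adjusted p = 0.024). Rpl10, which sits by the tRNA sites and is placed late in subunit assembly, had -0.20, -0.13 and -0.12 (mean -0.15 ± 0.032, adjusted p = 0.017), and its 2 probes read -0.22 and -0.19 at 6 h. Rpl22l1, the paralog of Rpl22, had -0.16, -0.12 and -0.13 (mean -0.14 ± 0.029, adjusted p = 0.017). All 3 lay below 0 on every array, and the largest of them was a 1.17-fold difference, Rps2 at 6 h. The Rpl22l1 value rests on 1 usable probe. The Rps2 value rests on 1 of its 3 probes, as another was saturated and the third too dim. With the dim probe kept the gene's mean was -0.028 and did not pass (adjusted p = 0.61), and with plain background subtraction it was -0.12 (adjusted p = 0.079).

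Rps21 had -0.17, -0.165 and -0.083 (mean -0.14 ± 0.032, adjusted p = 0.022), and its 3 probes were all below 0 on every array. Rpl7a also passed (mean -0.11 ± 0.030, adjusted p = 0.036). Of the 2 Rpl7a probes used, 1 read -0.041, 0.0045 and -0.045 and the other -0.18, -0.17 and -0.22.

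**Figure D2:**
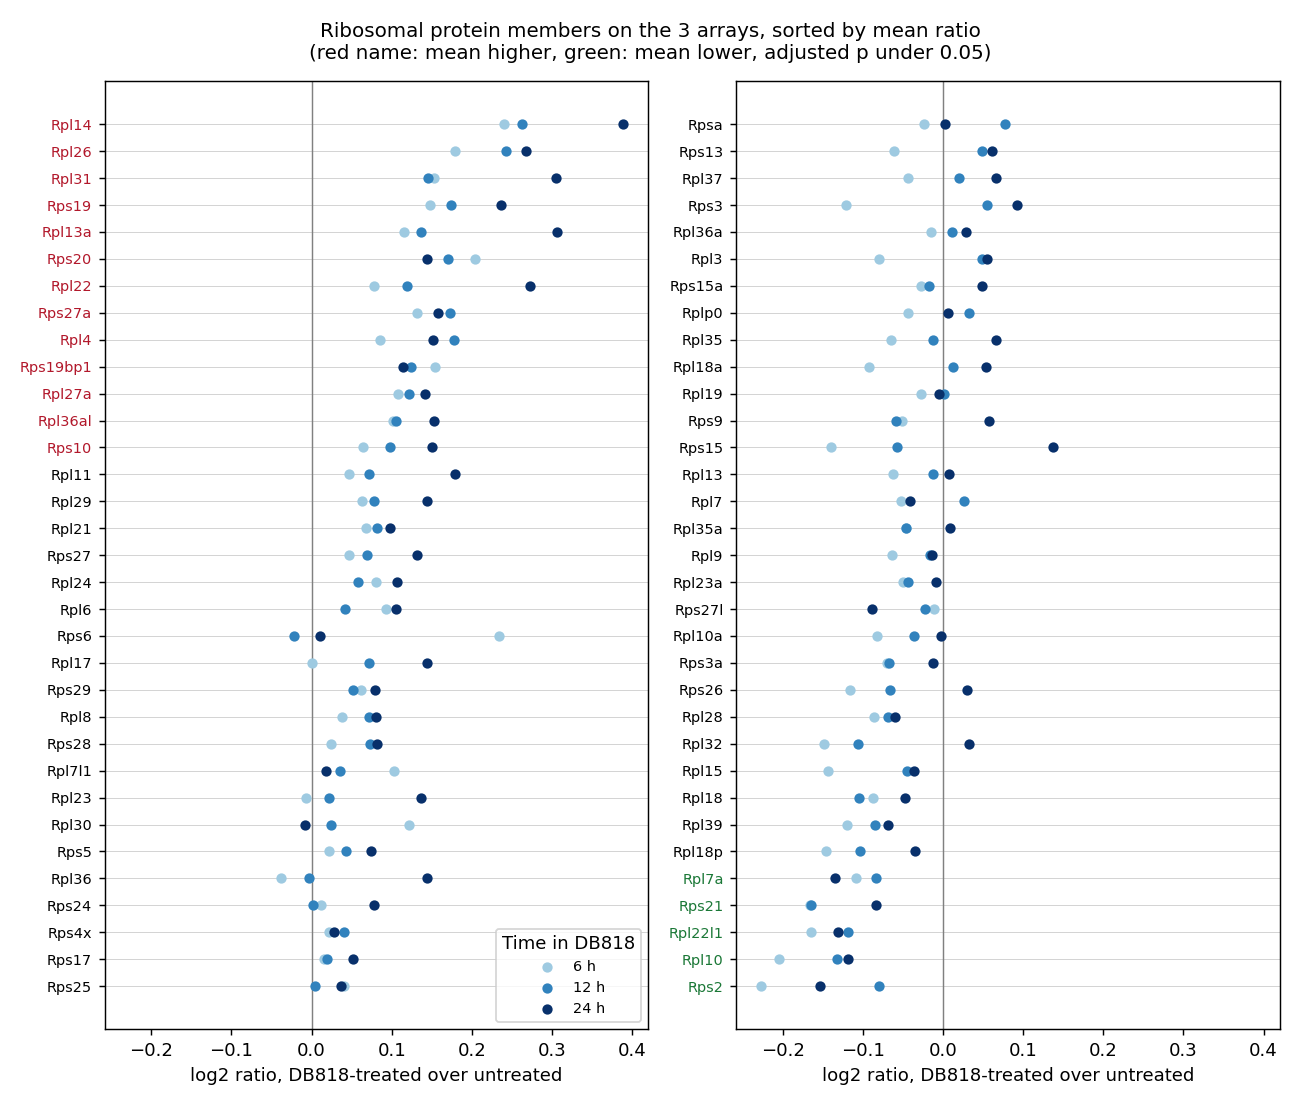
Log2 ratios of DB818-treated over untreated signal for 66 members measured on all arrays, with 1 point for each of the 6, 12 and 24 h arrays, sorted by mean. Red names mark the 13 members with a higher mean and green names 5 with a lower mean (limma, adjusted p under 0.05); under median centring, without loess, those 5 lower members and Rps20 change sign.

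The calls depended on the 12 h array and on the processing of the signals. Without the 12 h array 1 member (Rpl14) was higher and 0 were lower, without the 24 h array 7 and 3, and without the 6 h array 14 and 5. The counts with an array left out have no count over all genes beside them. With Agilent's own processed signals 4 members were higher (Rpl14, Rpl26, Rps20 and Rps27a) and 0 lower. Over all 10958 genes that setting called 594 higher and 643 lower, where the main setting called 2200 and 861. It changes the background and the dye normalisation together. Plain background subtraction, with loess kept, gave 11 higher and 3 lower members, against 2200 and 727 of all genes. It kept 14 of the 19 calls, and Rps2, Rpl22, Rpl7a and Rps10 were among those lost. Without the filter on dim probes 15 of the 19 were kept, and Rps2, Rpl13a, Rpl22 and Rps10 were lost. The 3 arrays differ in time, so change with time counts as error in this test, and a dye bias that was the same on all arrays would be part of the mean.

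The start sites of 12 of the members that passed are shown to make visible which of them have a long run of pyrimidines (C or T) nearby. RefSeq promoters (GRCm38.p6) matched 61 of the 81 ribosomal protein members, and each line below is the 40 bases around an annotated start, 20 before and 20 from the start on, 5′ to 3′ on the gene's strand. Capitals mark a run of 8 or more C or T that begins within 20 bases of the start. Where RefSeq lists several starts (Rps19, Rpl22 and Rps21), the first listed is shown, and a gene was counted if any of them had the feature.
Rpl14 (higher; chr9:120571497-120571536, + strand): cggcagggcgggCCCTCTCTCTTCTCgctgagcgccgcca
Rpl31 (higher; chr1:39367831-39367870, + strand): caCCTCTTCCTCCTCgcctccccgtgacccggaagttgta
Rpl13a (higher; chr7:45128726-45128765, - strand): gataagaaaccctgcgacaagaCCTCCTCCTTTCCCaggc
Rpl4 (higher; chr9:64173367-64173406, + strand): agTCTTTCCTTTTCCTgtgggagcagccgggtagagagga
Rpl26 (higher; chr11:68901546-68901585, + strand): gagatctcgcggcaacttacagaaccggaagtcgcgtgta
Rps19 (higher; chr7:24884572-24884611, + strand): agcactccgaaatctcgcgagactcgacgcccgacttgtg
Rpl22 (higher; chr4:152325706-152325745, + strand): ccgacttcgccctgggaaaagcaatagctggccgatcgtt
Rpl22l1 (lower; chr3:28805488-28805527, + strand): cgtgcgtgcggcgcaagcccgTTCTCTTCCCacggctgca
Rpl7a (lower; chr2:26910787-26910826, + strand): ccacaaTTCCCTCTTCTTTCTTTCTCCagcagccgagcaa
Rpl10 (lower; chrX:74270796-74270835, + strand): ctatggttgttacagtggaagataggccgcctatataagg
Rps2 (lower; chr17:24720043-24720082, + strand): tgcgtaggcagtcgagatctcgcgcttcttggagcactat
Rps21 (lower; chr2:180257359-180257398, + strand): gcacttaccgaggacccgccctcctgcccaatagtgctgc
Such a run was found in both directions of change: in 6 of 10 members that were higher, 2 of 5 that were lower and 17 of 33 that did not pass, each of those with a matched promoter. Rpl26, Rps19, Rpl22, Rpl10, Rps2 and Rps21 have none in the windows shown. Over all 61 matched members it was 30 (49.2%), against 19.3% of 27025 genes with a promoter in the table. Such a run need not be a tract at the mRNA's 5′ end: those of Rpl31 and Rpl4 begin 18 bases before the annotated start and end before it. A C at the start followed by 4 pyrimidines stood in 13 of the 61 (21.3%), against 3.01% of all genes.

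Promoter letters were searched in the 300-base windows (250 before and 50 from the start on) on both strands. The ETS core CCGGAA, which is visible in Rpl26 and Rpl31 above, stood in 33 of 61 members (54.1%, against 16.7% of all genes) and the GC box GGGCGG in 38 (62.3%, against 38.2%). The core of the YY1 site, AAGATGGC, stood in 6 (9.84%, against 3.19%) and TATAAA in 7 (11.5%, against 15.7%).

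Because DB818 has been studied against HOXA9, 2 forms of the site that Hox9 proteins bind with Pbx, TGATTTAT and TGATTTAC, were also searched. The first stood in 1 member (1.64%, against 1.15% of all genes) and the second in 0 of 61 (against 0.659%). The 1 match was in Rpl36a, whose ratios were -0.015, 0.011 and 0.029, and it begins 99 bases before the start. Its letters on the gene's strand are in capitals here, within 40 bases.
Rpl36a (did not pass; chrX:134585539-134585578, + strand): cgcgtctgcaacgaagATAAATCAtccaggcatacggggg
The shorter core TTTAT, which the longer form contains, stood in 14 members (23.0%, against 43.8% of all genes), and the members' windows before the start held a median of 42.4% A and T, against 48.0%. A match is a run of letters and not a measured binding site.

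Most members stood higher at 24 h than at 6 h, by a small amount. The difference was above 0 in 58 of 68 members (85.3%, against 50.1% of all genes), and in 47.6% of the 1042 other genes among the brightest. Its median was 0.058, against 0.00013 over all genes. It was positive in 20 of 26 small-subunit and 37 of 40 large-subunit genes. In 9 alternative processings, median centring and Agilent's signals included, the count above 0 was 56 to 59, except 64 (of 82 members) with saturated probes kept. Without the filter on dim probes the count was 57 of 71 members.

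The differences of single genes compare 1 array with 1 array and have no replicate check. Of the 68 members, 12 were at least 1.1-fold higher at 24 h than at 6 h (17.6%, against 12.3% of all genes) and 1 was at least 1.1-fold lower (against 11.6%). Tested as a slope on log2 time, 0 members passed in either direction (limma, smallest adjusted p = 0.057), against 1.83% of all genes upward and 1.3% downward. The slope has 1 residual degree of freedom per gene, so it leans on the variance shared across genes.

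Rps15, a protein of the head of the small subunit, had the widest difference, with -0.14, -0.057 and 0.137 at 6, 12 and 24 h and a difference of 0.28. Rps3, at the mRNA entry channel, had -0.12, 0.055 and 0.092, a difference of 0.213. Next came Rpl22 (0.195), Rpl13a (0.19) and Rpl36 (0.18). The member at the other end was Rps6, the protein phosphorylated by the S6 kinases, with 0.23, -0.022 and 0.011, a difference of -0.22, and also among the lowest were Rpl30 (-0.13), Rpl7l1 (-0.085) and Rps27l (-0.077).

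The 2 channels were also compared between arrays, after quantile normalisation of the channels and with the same probes of a gene in both, to see which one moved. Over 68 members the treated channel of the 24 h array stood at a median of 0.013 relative to that of the 6 h array, and the untreated channel at -0.076. In 51 of the 68 the untreated signal was lower on the 24 h array, and in 59 of 68 the treated channel's change lay above that of the untreated one. The difference in ratio between the times thus went with a lower untreated signal on the 24 h array. With the channels scaled to a common median instead, the medians were 0.058 for the treated and -0.019 for the untreated channel, so the share of each channel depends on the scaling.

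Rps15 shows the pattern in 1 gene: its treated signal stood at 10.48, 10.63 and 10.49 (log2, quantile-normalised) on the 6, 12 and 24 h arrays, and its untreated signal at 10.64, 10.71 and 10.39. Between the 24 and 6 h arrays the untreated channel was the one that differed. Rpl14 did the reverse, with treated signals of 9.48, 9.60 and 9.66 and untreated signals of 9.28, 9.36 and 9.28. Rps6 had treated signals of 12.73, 12.40 and 12.64 and untreated signals of 12.42, 12.38 and 12.58.

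**Figure D3:**
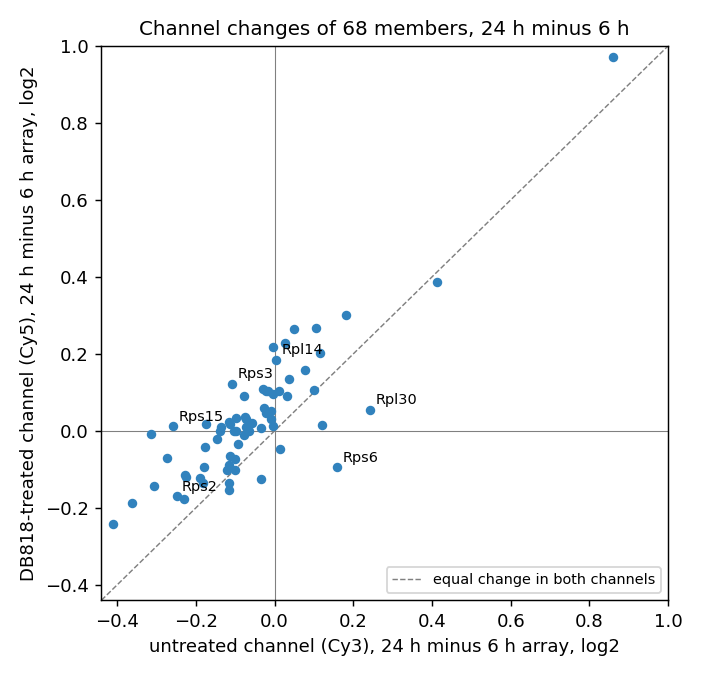
Change of the DB818-treated channel (vertical) against that of the untreated channel (horizontal) between the 24 h and 6 h arrays, in log2 after quantile normalisation, for 68 members, each from the same probes in both channels; the dashed line marks equal change. In 59 of the 68 members the point lies above the line, 51 lie left of 0, and the point at the upper right is Rps27a (0.97 in the treated and 0.86 in the untreated channel).

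The untreated channel shows how far the members differ between arrays with no treatment, and its counts depend on the scaling. After quantile normalisation 4 of 82 members (4.88%, against 19.9% of 11025 genes) differed by 1.1-fold or more between the 12 and 6 h arrays, 26 (31.7%, against 23.3%) between the 24 and 12 h arrays and 22 (26.8%, against 33.2%) between the 24 and 6 h arrays. With the channels scaled to a common median the same counts were 63 (76.8%, against 35.4%), 62 (75.6%, against 36.9%) and 17 (20.7%, against 24.3%), so whether the members differed more or less often than all genes between the 12 and 6 h arrays turned with the scaling. Rps27a, read by 1 probe, had 13.78, 14.63 and 14.75 in the treated channel and 13.62, 14.44 and 14.48 in the untreated channel, so both dyes were low on the 6 h array while its ratio stayed between 0.13 and 0.17.

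Many of the brightest members could not be given a ratio, because the treated channel reached the scanner's limit. In Cy5 20, 23 and 23 member probes were saturated at 6, 12 and 24 h, out of 38, 44 and 46 on the whole arrays, and in Cy3 0 were. A saturated treated signal gives only a lower bound on the ratio before normalisation. The loess curve was fitted with the saturated spots included, so the bounds below are approximate and relative to genes of like brightness. In all, 23 genes had such a probe, and 10 had every probe saturated on every array.

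Of 66 saturated readings 11 were above 0 and give a bound. Rpl12, part of the base of the stalk, had bounds of 1.11-fold, 1.13-fold and 1.08-fold higher at 6, 12 and 24 h, and 1.13-fold was the largest bound. Rps7 was measured at 6 h (0.17) and had bounds of 1.08-fold and 1.04-fold higher at 12 and 24 h. Rpl5, which with Rpl11 and 5S rRNA binds the p53 regulator Mdm2, had a bound of 1.03-fold higher at 6 and 12 h. It was measured at 24 h (0.19, with 31.0% of pixels saturated). The bounds for Rps18 at 12 h and Rps19 at 6 and 24 h were 1.05-fold or less.

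The other 55 readings lay at or below 0 and say nothing of direction, since the true treated signal may be higher. They include Rplp1 (lowest, -0.68, -0.84 and -0.88), Rplp2, Rpl37a, Rpl38, Rpl41, Rps12, Rps14, Rps16, Rps23, and saturated probes of Rpl7a, Rpl11, Rps2, Rps13, Rps18, Rps20, Rps28 and, at 24 h, Rpl27. Kept as if they were measurements, they would give 16 lower of 82 members, in place of 6 of 68. Over all genes that setting called 885 of 10984 lower, in place of 861 of 10958. Altogether 15 members were not tested: 14 of these for saturation, and Rpl3l, the form of striated muscle, whose probe was too dim at 6 and 12 h.

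**Figure D4:**
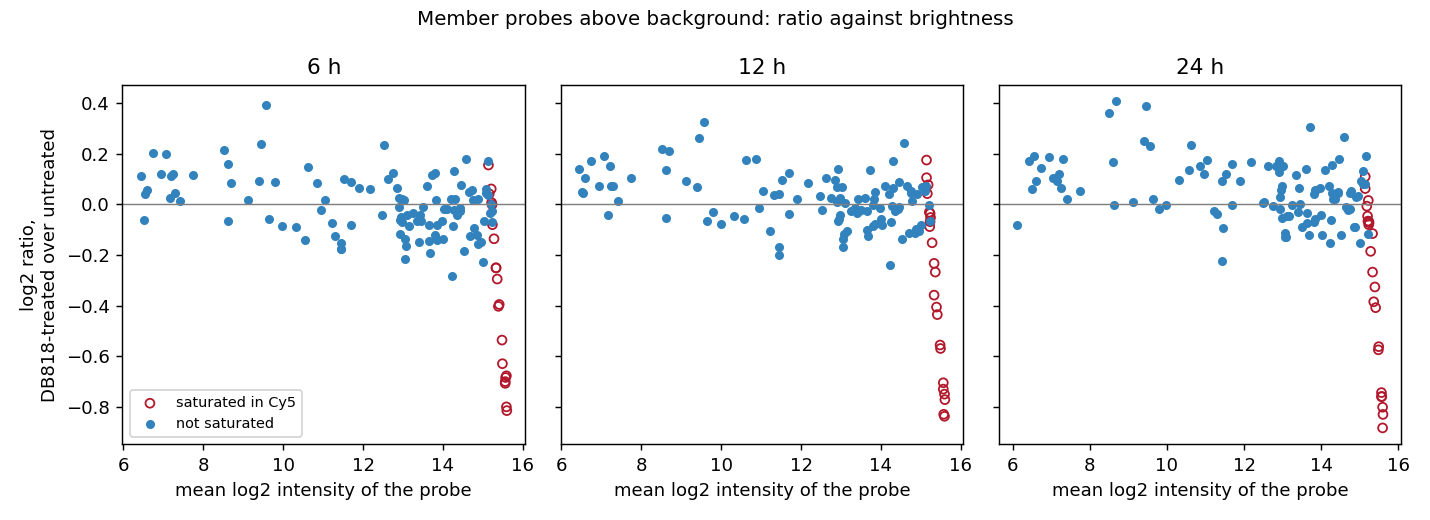
Log2 ratio of DB818-treated over untreated signal against the probe's own mean log2 intensity, for member probes that passed the background filter in both dyes, on the 6, 12 and 24 h arrays; open red circles are saturated in Cy5 and filled blue points are not. The saturated readings run down to -0.88 at the bright end, where they are approximate lower bounds, while the other readings lie around 0.

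Over the 68 members tested the mean ratio was lower in brighter genes (Pearson r = -0.37, Spearman rho = -0.32 across genes, which are not independent replicates and share the arrays and their normalisation). Over all tested genes r was -0.060. The brightness of a member therefore moves with its ratio, and the part this has in the calls was not tested.

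Probes of 1 gene did not always read alike. Of 30 members with more than 1 usable probe the median largest gap between probe means was 0.14 and the largest 0.48. That largest gap belonged to Rps19bp1, whose probes read 0.39, 0.33 and 0.23 and, the other, -0.087, -0.079 and -0.0025. Its higher mean of 0.13 rests on the first, and by its brightest probe alone the gene stands at -0.056.

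Rpl13, Rpl9 and Rps24 also had probes of opposite sign more than 0.2 apart. For Rpl13, 2 probes read -0.14 and -0.16 at 6 h and the third 0.11. For Rpl9 the probes read -0.18 and 0.057 at 6 h, and for Rps24 -0.13, 0.042 and 0.12. None of these 3 genes passed on its mean. Fitted one by one, 19 of 105 member probes were higher and 11 lower, counts that have no share over all probes beside them.

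Paralogs, second copies of a ribosomal protein gene that code for a related protein, were measured apart in several cases. Rpl22, whose loss in mice blocks the development of most T cells, had 0.078, 0.12 and 0.27 (mean 0.16 ± 0.043, adjusted p = 0.037), and Rpl22l1 fell, as given above. The 2 Rpl22 probes read 0.073, 0.026 and 0.14 in the one and 0.083, 0.21 and 0.41 in the other. The paralogs do not overlap on any array, though the difference between them was not tested, and Rpl22l1 changes sign with median centring (0.37).

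Rpl36al had 0.10, 0.11 and 0.15 (mean 0.12 ± 0.030, adjusted p = 0.027) and Rpl36a, as given above, did not pass (mean 0.0081 ± 0.029). Rps27 had 0.046, 0.069 and 0.13 (adjusted p = 0.095, with 41.4% of pixels saturated at 24 h), and Rps27l, which p53 induces in human cells, had -0.011, -0.022 and -0.088 (adjusted p = 0.36). Rpl7 and Rpl7l1 had means of -0.022 and 0.052 and did not pass. Rpl39 had -0.12, -0.085 and -0.068 (adjusted p = 0.061). The probes of Rpl39l and Rps4l gave 0 usable ratios.

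**Figure D5:**
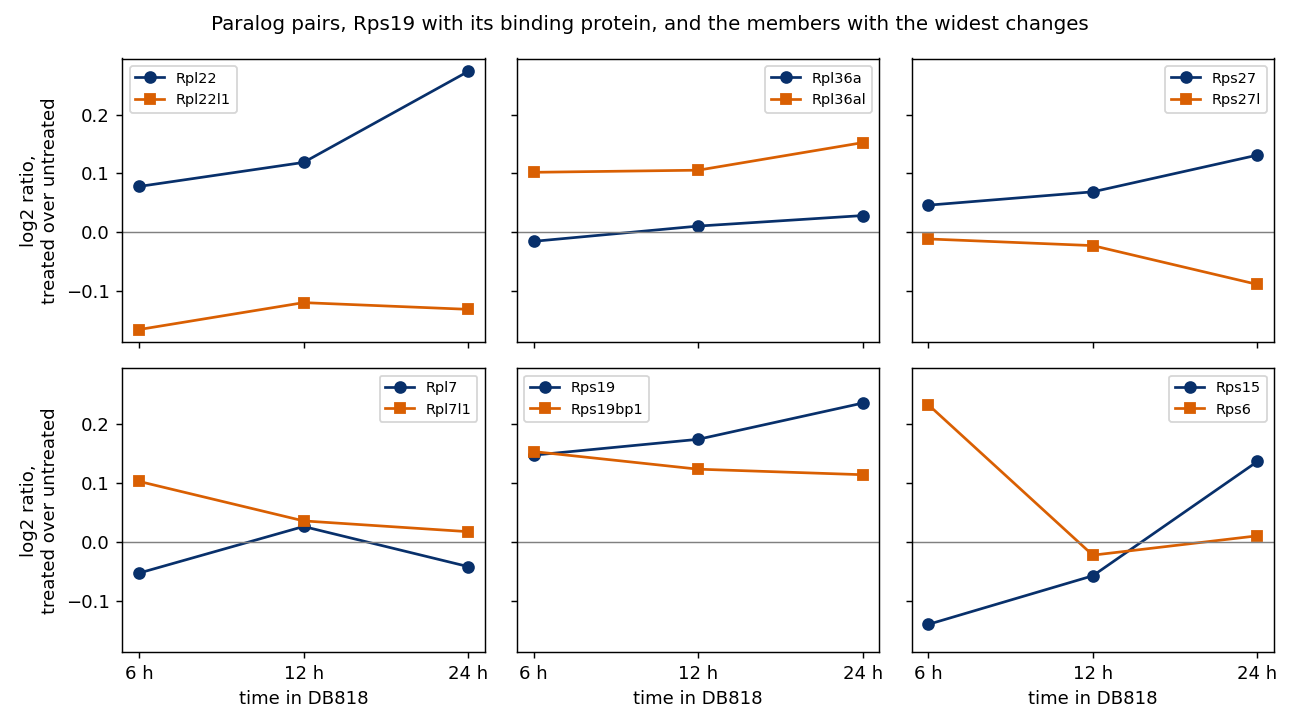
Log2 ratios of DB818-treated over untreated signal at 6, 12 and 24 h for 4 paralog pairs, for Rps19 with its binding protein Rps19bp1, and for Rps15 and Rps6, the members with the widest differences between 24 and 6 h. Rpl22 lies above 0 and Rpl22l1 below 0 on all 3 arrays (Rpl22l1 lies above 0 under median centring, without loess), while Rps15 and Rps6 cross over.

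Among members with known roles outside the ribosome, Rpl26 and Rpl13a were higher, as given above, and the following did not pass. Rpl11, read by its 1 unsaturated probe, had 0.047, 0.072 and 0.18 (adjusted p = 0.080). That probe was dim, with a mean log2 intensity of 7.3, against 15.3 for the saturated Rpl11 probe. Rpsa, also known as a laminin receptor, had -0.024, 0.077 and 0.0026 (adjusted p = 0.69), and Rps3 and Rps6 did not pass on their means (adjusted p = 0.89 and 0.31). In the stalk, which recruits elongation factors, Rplp0 had -0.043, 0.033 and 0.0061 (adjusted p = 0.97). The same protein is also read by 2 probes that the files name Arbp, an older name of Rplp0 in RefSeq, and these gave 0.094, 0.21 and 0.22 (mean 0.17 ± 0.036, adjusted p = 0.016), so the 2 readings of this gene disagree.

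Ribosomal proteins that carry other names on the arrays fall outside the rule. Of 7 such entries 4 were tested, with 2 higher and 0 lower: Arbp, and Rpl34, which the files give under an older symbol, with 0.14, 0.13 and 0.098 (mean 0.12 ± 0.029, adjusted p = 0.023). Rack1, a signalling scaffold on the small subunit, had -0.17, -0.031 and -0.041 (adjusted p = 0.15). The Fau probe gave 0 usable ratios.

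Other genes of the translation machinery were read from lists, whose counts stand beside 20.1% higher and 7.86% lower among all tested genes. Of 18 translation factors and related genes whose mRNAs carry the same tract, 1 was higher and 1 lower (5.56% each), with a median mean of -0.0018. Eif3a had 0.42, 0.28 and 0.31 (mean 0.34 ± 0.037, adjusted p = 0.0043) and Eif3l -0.10, -0.14 and -0.23 (mean -0.16 ± 0.035, adjusted p = 0.019), both subunits of initiation factor 3. Eef1a1 and Eef2, the elongation factors, did not pass (adjusted p = 0.44 and 0.20). Of 24 other initiation factors 4 (16.7%) were higher (Eif5, Eif5b, Eif3c and Eif4e, means 0.18, 0.18, 0.15 and 0.14) and 2 (8.33%) lower (Eif2b2 and Eif3b, both -0.17).

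Of 16 regulators of ribosomal protein synthesis 2 were higher and 2 lower (12.5% each). Eif4ebp2, an inhibitor of cap-dependent initiation that mTOR inactivates, had 0.59, 0.44 and 0.31 (mean 0.45 ± 0.052, adjusted p = 0.0047), above every member on each of the 6 and 12 h arrays. Tsc2, which restrains mTOR through Rheb, had 0.095, 0.23 and 0.20 (mean 0.17 ± 0.036, adjusted p = 0.016). Rheb, the activator of mTOR, had -0.12, -0.13 and -0.14 (mean -0.13 ± 0.029, adjusted p = 0.019) and Rptor, a subunit of mTOR complex 1, -0.10, -0.12 and -0.24 (mean -0.15 ± 0.037, adjusted p = 0.026).

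Among the rest of that list Myc, a transcriptional activator of ribosome synthesis, had -0.040, -0.12 and -0.056 (adjusted p = 0.13), Larp1 had a mean of -0.11 (adjusted p = 0.055) and Mtor one of 0.085 (adjusted p = 0.069). Of 13 chaperones, importers and assembly factors of ribosomal proteins 3 (23.1%) were higher (Pdcd2, Nob1 and Bccip, means 0.15, 0.13 and 0.13) and 1 (7.69%) lower (Aamp, -0.11). With 13 to 24 genes tested in a list, the shares move by several percentage points with a single gene.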

How the data were processed

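RNA of DB818-treated MigA9 cells (Cy5) and untreated cells (Cy3) was measured on 1 two-colour Agilent array per time. The submitters' processing notes name Agilent Feature Extraction 9.1.3.1. Per the file headers, the deposited scanner files hold the intensity of spot and background in both dyes. A deposited table of values holds the scanner's log10 ratio, and its largest difference from the scanner files was 0. All ratios used here were computed from the intensities.

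Background was corrected with normexp (offset 50) on mean foreground and median background, and arrays were normalised by loess within each array, without scaling between them (limma 3.58.1, R 4.3.3, with the package data.table in version 1.17.8). Control spots and 37, 36 and 52 outlier spots were left out. The offset draws the ratios of dim genes toward 0. A gene was the mean of its unsaturated probes that the scanner marked well above background in Cy3 and Cy5. Gene names were updated through RefSeq by accession for 115 of the 141 member probes, by symbol for 25 and by synonym for 1. The mean over the 3 times (2 residual degrees of freedom, prior 4.81) and the slope on log2 time (1, prior 8.49) were fitted on 10958 genes with lmFit and eBayes and adjusted by Benjamini-Hochberg at 0.05. With 1 array per time the p-values measure only the spread between the 3 times. Figures were drawn with matplotlib 3.10.9 (Python 3.11.15) from tables read with pandas 2.3.3 and numpy 2.4.6.

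Named genes were the 5 highest and 5 lowest members at each time and between 24 and 6 h, up to 10 each way past the threshold, and members fixed by name (saturated genes, paralogs, stalk proteins, ribosomal proteins with other file names, genes whose probes disagree in sign by over 0.2). Genes that complete a count are named too, after their values were seen. The members, the gene lists and the tests were chosen with earlier results of these data known. Alternatives covered background correction, normalisation, filters, the choice of probe, array weights, the fold threshold and leaving out each array. A few single genes are counted in the totals but not reported here by name.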

Additional observations from a re-analysis of the deposited data

How the results depend on the processing

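The number of arrays, and saturation at the bright end, limit these results. Leaving out 1 array in turn gave 1 to 14 higher and 0 to 5 lower members on the mean, the lowest of both without the 12 h array, where 18 of the 19 calls were lost, against 9 without the 24 h array and 1 without the 6 h array. The slope could not be fitted with an array left out, and no paired analysis was possible because no group has a second sample. Agilent's processed signals gave 4 higher and 0 lower members, against 594 and 643 of all 10958 genes, and 15 of the 19 calls were lost. They also gave medians of 0.038 and 0.054 at 6 and 12 h, and 5 members 1.1-fold lower at 6 h. Plain background subtraction gave 3 lower members (727 of all 10958 genes), 5 members 1.1-fold lower at 6 h and 0 at 24 h. Median centring gave 62 higher and 2 lower members, against 4154 and 4477 of all 10958 genes, and a median mean of 0.49. It put the members' medians at 0.479, 0.444 and 0.525 at 6, 12 and 24 h. It also put 65, 61 and 62 members 1.1-fold higher, against 2, 3 and 3 lower. Among genes it reversed were Rps20 (-0.26), Rps2 (0.49), Rpl10 (0.38), Rps21 (0.23), Rpl22l1 (0.37), Rpl32 (0.57), Rpl7a (0.34), Rps15 (0.30), Rps27l (0.50), Rpl39 (0.47), Rpl7 (0.49) and Rplp0 (0.46). Saturated probes kept gave 16 lower of 82 members, against 885 of 10984 genes. They also gave 19, 13 and 11 members 1.1-fold lower at the 3 times, and a reversed Rps20 (-0.10). By the brightest probe 1 member passed on the slope, 2 were 1.1-fold lower at 24 h, and Rps19bp1 reversed (-0.056). Without the filter on dim probes 2 and 0 members were 1.1-fold lower at 12 and 24 h. Array weights (0.425, 4.39 and 0.536) gave 23 higher and 14 lower, probes fitted singly 11 lower, and a slope on hours 1 member. At 0.32 in log2 in place of 1.1-fold the counts were 0 each way at 6 and 12 h, and 1 higher and 0 lower at 24 h. In the untreated channel median scaling put 63 and 62 members past 1.1-fold between the 12 and 6 h and the 24 and 12 h arrays. Of 2 alternatives chosen after seeing the data, loess without saturated spots gave 1 member on the slope, and leaving out every probe with a saturated pixel gave 2 members 1.1-fold lower at 12 h. Loess fitted without the ribosomal protein probes kept 18 of the 19 calls. The cause of each of these changes was not tested. Where no count over all genes stands beside them, the members' counts do not show whether other genes changed as often.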
